A study of Mus musculus with 6 samples.

Results

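Fibro-adipogenic progenitor markers, 10 genes in all, were followed in RNA-seq libraries of cultured muscle stem cells: Ly6a, Thy1, Dpep1, Gsn, Mfap5, Dpt, Has1, Has2, Pi16 and Fbln7. They were chosen by name, with earlier results of these data known. All 10 were found among the 20588 genes of the deposited table. The cells were satellite cells, the resident stem cells of skeletal muscle, sorted from the hind limbs of mice (strain C57BL/6NJ, age 2 months), grown for 7 days and then held for 16 h in medium with 2% horse serum. There were 3 libraries of wild-type cells (WT 1 to WT 3) and 3 of cells with the genotype Pnpla2PKO (PKO 1 to PKO 3), a knockout of the gene for adipose triglyceride lipase. The Cre driver and the deleted part of the gene are not stated in the labels. Nor is it stated that each library has its own mouse. The p-values here thus set the difference between groups against the spread of these 6 libraries within groups only, and some of that spread may be technical.

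Fibro-adipogenic progenitors are mesenchymal cells of the muscle interstitium that are defined by the receptor Pdgfra and by surface Ly6a (Sca-1). They support regeneration and can turn into adipocytes or into matrix-producing fibroblasts. They make collagens, microfibril proteins and hyaluronan, a large sugar polymer of the extracellular space. Sorting for satellite cells is meant to remove them, so their marker genes also serve as a check on the purity of a culture. In bulk RNA, fewer cells of a type and less RNA per cell cannot be told apart.

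In the deposited table (GRCm38), the members lie on 7 chromosomes. The surface genes are Ly6a at chr15:74994877-74998031 (minus strand), Thy1 at chr9:44043384-44048579 (plus strand) and Dpep1 at chr8:123186235-123201810 (plus strand). The matrix genes are Mfap5 at chr6:122505845-122529290 (plus strand), Dpt at chr1:164796732-164824266 (plus strand) and Fbln7 at chr2:128862981-128897034 (plus strand). The hyaluronan synthases are Has1 at chr17:17843328-17855188 (minus strand) and Has2 at chr15:56665627-56694539 (minus strand). The remaining members are Gsn at chr2:35279663-35307892 (plus strand) and Pi16 at chr17:29318877-29329413 (plus strand).

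Total counts per library ran from 15580176 to 18839151. Levels are in CPM (read counts relative to the TMM-scaled library size). Defining genes of the labelled cell type were present in every library: Myod1 was at 1148 to 1852 CPM and Pax7 at 41.2 to 114 CPM. Pax7 was uneven, with 44.5, 114 and 107 CPM in WT 1 to WT 3. In PKO 1 to PKO 3 it was at 56.3, 43.6 and 41.2 CPM (edgeR adjusted p = 0.269, DESeq2 adjusted p = 0.101). Pnpla2 ran from 21.1 to 38.5 CPM in WT and from 8.47 to 16.0 CPM in PKO, lower in every PKO library (edgeR adjusted p = 0.190, DESeq2 adjusted p = 0.00796). PKO 2 and PKO 3 stood apart from the other 4 libraries in stromal genes, with Pdgfra at 102 and 95.3 CPM against 2.03 to 5.12 CPM elsewhere, so results are given below with and without single libraries.

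Members were mostly higher in PKO, but by very different amounts and in different PKO libraries. Ly6a, Mfap5 and Fbln7 were low in WT and higher in all 3 PKO libraries, Thy1 and Dpt were higher in PKO 2 and PKO 3, and Pi16 was high in PKO 3 alone. Dpep1, Gsn and Has2 were well expressed in WT too, with WT 1 above WT 2 and WT 3. Pdgfra was at only 2.13, 2.03 and 3.72 CPM in WT 1 to WT 3, and which cells express Dpep1, Gsn and Has2 there was not tested. No member passed an adjusted p of 0.05 with edgeR's quasi-likelihood test, nor did any other gene (0 of 14025 tested genes, 0%, smallest adjusted p among members 0.179). limma-voom likewise called 0 genes. At an unadjusted p under 0.05, 7 members were higher and 0 lower, against 10.2% and 6.35% of all tested genes. With DESeq2, 4 members rose at an adjusted p under 0.05 (Ly6a, Thy1, Mfap5 and Fbln7), of 9 with an adjusted p, and 0 fell, against 4.73% and 0.933% of the 16192 genes with a DESeq2 adjusted p. Every PKO library lay above every WT library for 5 of the 10 members (Ly6a, Dpep1, Gsn, Mfap5 and Fbln7), against 10.4% of all genes in the table, and the reverse held for 0 members, against 9.7% of tested genes. The low-count filter kept 8 members and removed Dpt and Pi16. Ly6a, Mfap5 and Fbln7 were kept through their PKO counts, having 2, 2 and 0 WT libraries above the filter's level of 0.556 CPM where 3 libraries were needed, so the counts over tested members are descriptions only.

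**Figure D1:**
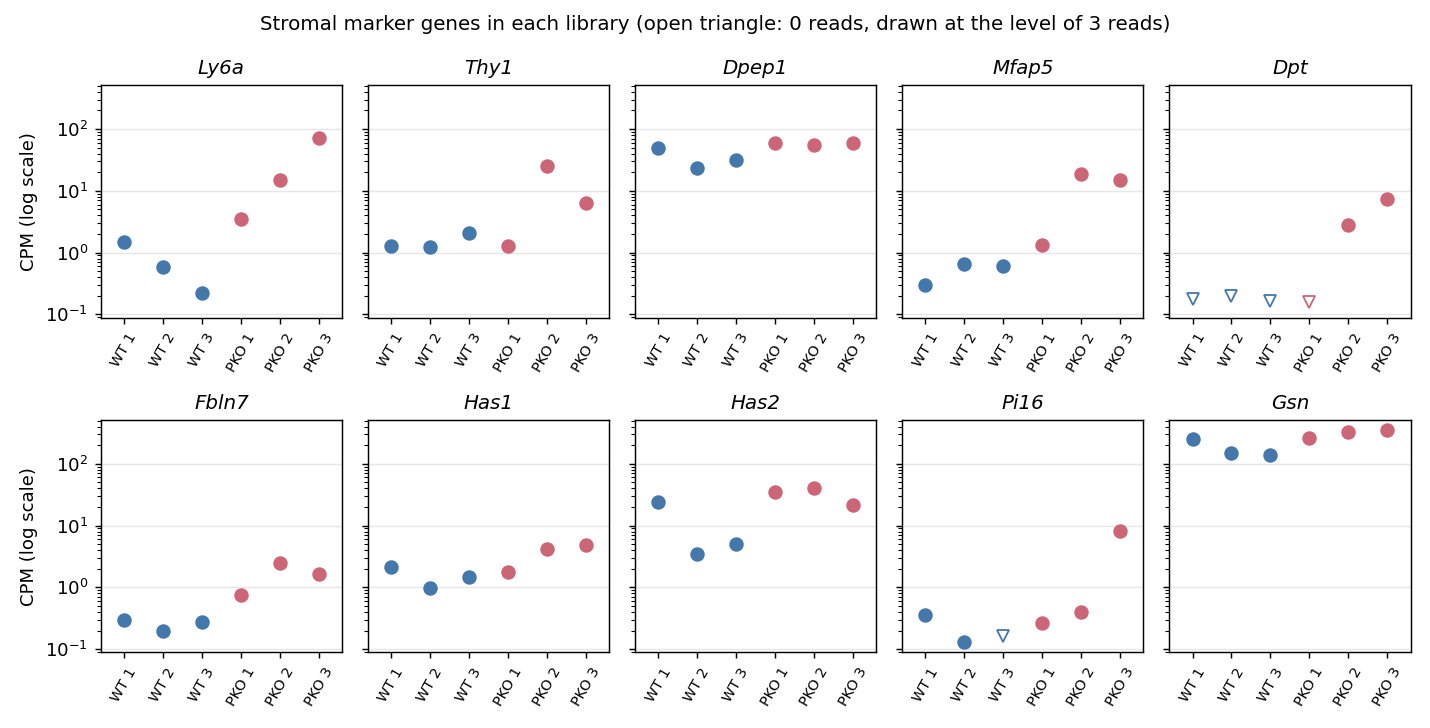
CPM of each member (log axis) in each of the 6 libraries, WT in blue and PKO in red; an open triangle marks 0 reads and is drawn at the level that 3 reads would give. Ly6a, Dpep1, Gsn, Mfap5 and Fbln7 separate the groups, and Pi16 is high in PKO 3 alone at 8.21 CPM. Gsn, Dpep1 and Has2 are the highest members in every WT library.

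Among the surface genes, Ly6a encodes Sca-1, a glycolipid-anchored protein used to sort stromal progenitors. WT 1 to WT 3 had 1.48, 0.589 and 0.219 CPM of Ly6a, and PKO 1 to PKO 3 had 3.46, 14.7 and 71.2 CPM. The groups did not overlap, but the PKO libraries spanned a 20.5-fold range, from 65 reads in PKO 1 to 1387 in PKO 3. The means were 0.762 ± 0.646 CPM for WT against 29.8 ± 36.3 CPM for PKO (SD, n = 3 each). edgeR gave a log2 difference of 5.28 ± 1.24 (SE) and adjusted p = 0.185, and DESeq2 gave adjusted p = 0.00214. Without PKO 3 it was 3.57. Reads may be shared with close copies in the Ly6 gene cluster.

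Thy1, another glycolipid-anchored surface protein of fibroblasts and of some other cell types, was highest in another knockout library. WT 1 to WT 3 had 1.30, 1.24 and 2.08 CPM of Thy1, and PKO 1 to PKO 3 had 1.28, 25.3 and 6.36 CPM. PKO 1 lay within the WT range, and PKO 2 stood highest. The log2 fold change was 2.82 ± 0.97, with edgeR adjusted p = 0.246 and DESeq2 adjusted p = 0.0112. It was 1.31 when PKO 2 was left out.

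Dpep1 encodes a membrane-bound dipeptidase that cleaves, among other substrates, leukotriene D4. It was at 49.4, 23.3 and 32.1 CPM in WT, against 58.9, 55.0 and 59.5 CPM in PKO, so that the knockout libraries were nearly equal and WT 1 lay between them and the rest of WT. The difference was 1.65-fold (log2 0.73 ± 0.26, edgeR adjusted p = 0.255, DESeq2 adjusted p = 0.117). In GENCODE M21 the gene lies inside a longer overlapping gene on the same strand, Gm20388, and how reads in such an overlap were counted is not stated.

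Of the matrix genes, Mfap5 encodes a glycoprotein of elastin-associated microfibrils. It had 5, 10 and 11 reads in WT 1 to WT 3 and 25, 327 and 287 reads in PKO 1 to PKO 3, which makes 0.295, 0.655 and 0.602 CPM against 1.33, 18.6 and 14.7 CPM. PKO 2 and PKO 3 were alike, and PKO 1 was 11.1-fold below PKO 3 while still above every WT library. The mean rose from 0.517 ± 0.194 to 11.6 ± 9.06 CPM with DESeq2 (adjusted p = 4.61e-06); edgeR gave log2 4.47 ± 0.97 and adjusted p = 0.179. In the authors' deposited table Mfap5 also had the smallest adjusted p of the members, 9.91e-06, and that table called the same 4 members as DESeq2 here (4.65% of genes there were called higher). It comes from the same libraries and is not separate evidence. Its log2 fold changes were smaller, at 1.26, 1.54, 2.44 and 1.53 for Ly6a, Thy1, Mfap5 and Fbln7, against 5.28, 2.82, 4.47 and 2.63 with edgeR.

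Dpt encodes dermatopontin, a small matrix protein that binds decorin and is a marker of fibroblasts in many organs. It had 0 reads in WT 1, WT 2, WT 3 and PKO 1, and 49 and 141 reads in PKO 2 and PKO 3. These correspond to 2.79 and 7.24 CPM. Against the limit that 0 reads over the 3 WT libraries allow (3 reads, 0.0594 CPM), the level was at least 46.9-fold higher in PKO 2 and at least 122-fold higher in PKO 3. Since PKO 1 was at 0 like WT, the groups overlapped. The exact permutation p (two-sided) was 0.4, where 0.1 is the smallest that 3 against 3 libraries allow. DESeq2 gave adjusted p = 0.24.

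Fbln7 encodes fibulin 7, a secreted protein of the fibulin family. It had 5, 3 and 5 reads in WT and 14, 44 and 32 reads in PKO, or 0.295, 0.196 and 0.274 CPM against 0.746, 2.504 and 1.64 CPM. The groups did not overlap, and all values were low. The log2 fold change was 2.63 ± 0.57 (edgeR adjusted p = 0.179, DESeq2 adjusted p = 0.0133).

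Pi16, a secreted or membrane-anchored protein of the CAP family known as a marker of adventitial fibroblasts, was near 0 in all libraries but one. It had 6, 2 and 0 reads in WT 1 to WT 3, 5 and 7 reads in PKO 1 and PKO 2, and 160 reads in PKO 3. PKO 3 was thus at 8.21 CPM, and the other 5 libraries were between 0 and 0.398 CPM. The difference rests on that library. The exact permutation p (two-sided) was 0.2, and DESeq2 gave no p-value for the gene.

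The RefSeq promoter table (GRCm38.p6) held 6 of the 10 members, namely Dpt, Gsn, Fbln7, Dpep1, Has1 and Pi16. The sequences of 4 are shown because they contrast genes near 0 in WT (Dpt, Pi16 and Fbln7) with a gene expressed in every library (Dpep1). Each runs from 250 bases before to 50 bases after a RefSeq start site, 5′ to 3′ on the plus strand, which is that of all 4 genes: Dpt from chr1:164796413-164796712, Pi16 from chr17:29318632-29318931, Fbln7 from chr2:128863682-128863981 and Dpep1 from chr8:123185985-123186284. These start sites need not be the gene starts of the deposited table: the Dpt window ends before that start, and the Fbln7 window lies inside the gene. Letters just after the start site were found in a GENCODE transcript of the gene for Dpt, Pi16 and Fbln7, but not for Dpep1. Capitals mark matches, on either strand, to the TATA box with the letters TATAAA, the AP-1 element with the letters TGANTCA, the TEAD element with the letters GGAATG, the GC box with the letters GGGCGG, or the CCAAT box with the letters CCAAT.
Dpt: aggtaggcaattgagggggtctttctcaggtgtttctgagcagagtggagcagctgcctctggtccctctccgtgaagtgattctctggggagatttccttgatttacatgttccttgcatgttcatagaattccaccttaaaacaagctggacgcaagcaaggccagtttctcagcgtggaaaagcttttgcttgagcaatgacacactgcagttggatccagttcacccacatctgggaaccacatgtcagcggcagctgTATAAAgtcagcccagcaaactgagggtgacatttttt
Pi16: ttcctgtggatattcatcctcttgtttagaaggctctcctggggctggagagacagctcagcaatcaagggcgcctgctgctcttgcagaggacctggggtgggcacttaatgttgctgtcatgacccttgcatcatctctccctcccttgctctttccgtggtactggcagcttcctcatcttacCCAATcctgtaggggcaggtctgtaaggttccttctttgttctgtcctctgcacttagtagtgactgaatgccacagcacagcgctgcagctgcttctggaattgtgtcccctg
Fbln7: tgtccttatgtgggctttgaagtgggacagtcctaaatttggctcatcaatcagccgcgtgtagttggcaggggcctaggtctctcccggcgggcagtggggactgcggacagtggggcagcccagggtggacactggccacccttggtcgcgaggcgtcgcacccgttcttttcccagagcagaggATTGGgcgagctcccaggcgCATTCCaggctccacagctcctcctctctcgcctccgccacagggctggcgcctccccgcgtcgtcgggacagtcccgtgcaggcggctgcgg
Dpep1: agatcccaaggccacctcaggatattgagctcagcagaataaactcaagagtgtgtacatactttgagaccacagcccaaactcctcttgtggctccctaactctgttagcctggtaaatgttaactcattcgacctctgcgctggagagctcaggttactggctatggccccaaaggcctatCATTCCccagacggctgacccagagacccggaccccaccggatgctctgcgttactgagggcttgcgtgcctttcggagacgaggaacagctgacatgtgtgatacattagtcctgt
Dpt was the only one of the 6 with TATAAA, which 13.6% of the 32544 promoters of the table hold; its match begins 12 bases after the RefSeq start site and before the start of the gene in the deposited table. Pi16 had a CCAAT match (37.4% of promoters), Fbln7 a CCAAT and a GGAATG match, and Dpep1 a GGAATG match (14.6%). None of the 6 held TGANTCA, which 7.79% of promoters hold. The G+C content was 48.7% in Dpt, 53.3% in Pi16 and 52.7% in Dpep1, near the median of 53.0% over the table, and highest in Fbln7. These are letter matches only.

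Has1 and Has2 encode hyaluronan synthases, enzymes of the plasma membrane that extrude the polymer as they build it. WT 1 to WT 3 had 2.13, 0.982 and 1.48 CPM of Has1, and PKO 1 to PKO 3 had 1.76, 4.21 and 4.88 CPM, with PKO 1 inside the WT range. Its log2 fold change was 1.23 ± 0.48 (edgeR adjusted p = 0.276, DESeq2 adjusted p = 0.167). Has2 was at 23.7, 3.41 and 5.09 CPM in WT, against 35.1, 40.6 and 21.9 CPM in PKO. WT 1 was 5.58-fold above the mean of WT 2 and WT 3 and exceeded PKO 3, so the groups overlapped. The log2 fold change was 1.60 ± 0.70 (edgeR adjusted p = 0.312, DESeq2 adjusted p = 0.327), and 2.92 with adjusted p = 0.0108 in edgeR without WT 1. Has2os, which overlaps Has2 on the other strand, had 7 to 12 reads per library against 52 to 713 for Has2.

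The rest of the hyaluronan pathway was followed as well. Of 17 listed genes in the table, 11 were tested and had a median log2 fold change of 0.23, against -0.02 over all tested genes. With DESeq2, 1 of the 17 rose (Ugdh) and 0 fell, where 4.73% and 0.933% of all genes with an adjusted p did. A single call among 17 genes is near that share. Ugdh makes UDP-glucuronate, a building block of hyaluronan, and was at 74.1 ± 12.5 CPM in WT against 135 ± 40.0 CPM in PKO (DESeq2 adjusted p = 0.0338, edgeR adjusted p = 0.196). Vcan, a proteoglycan that binds hyaluronan, was at 117 ± 1.42 and 185 ± 52.6 CPM, higher in every PKO library (DESeq2 adjusted p = 0.0809). Has3, the remaining synthase, was at 2.66 ± 1.09 and 2.85 ± 0.773 CPM. Hmmr, a hyaluronan receptor that is also a mitotic gene, was at 9.86 CPM in WT 1, at 41.0 and 41.4 CPM in WT 2 and WT 3, and at 15.2 to 16.8 CPM in PKO.

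Gsn encodes gelsolin, an actin-severing protein that is abundant in stromal cells but also made by muscle. It was the most abundant member per gene length in every library. WT 1 to WT 3 had 255, 150 and 139 CPM of Gsn, and PKO 1 to PKO 3 had 262, 326 and 348 CPM; the groups were apart but WT 1 and PKO 1 were nearly equal. The difference was 1.72-fold (log2 0.78 ± 0.25, edgeR adjusted p = 0.222, DESeq2 adjusted p = 0.0619).

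Which members passed depended on the library left out. Without WT 1, edgeR called Dpep1, Gsn and Has2 higher, with log2 fold changes of 1.05, 1.10 and 2.92 (3.55% of genes were called higher in that fit). Without PKO 1, it called Ly6a, Thy1, Mfap5, Dpt and Fbln7 instead, with log2 fold changes of 5.82, 3.35 and 4.998 for Ly6a, Thy1 and Mfap5 and 2.98 for Fbln7 (4.54% of genes). For Dpt only the bounds given above apply, since WT was at 0. With WT 1 and PKO 1 both left out, which was chosen after seeing the data, 9 members were called higher and Pi16 was not tested (10.2% of genes). The same limits hold for that fit. Relative to WT 1, PKO 1 was at 1.03 times for Gsn, 1.19 times for Dpep1, 0.827 times for Has1 and 0.984 times for Thy1, but at 4.51 times for Mfap5, 2.53 times for Fbln7, 2.35 times for Ly6a and 1.48 times for Has2. Pi16 was at 0.752 times, from 6 and 5 reads, and Dpt had 0 reads in both.

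Compared per gene length, with the FPKM values of the authors' deposited table, the order of members changed between libraries. Gsn, Dpep1 and Has2 were the highest in WT 1, WT 2, WT 3 and PKO 1, in that order. In PKO 3, Ly6a at 77.1 FPKM was second to Gsn at 136 FPKM and exceeded Dpep1 at 27.4 FPKM. In PKO 2, Ly6a at 15.7 and Thy1 at 14.8 FPKM lay close together, below Dpep1 at 25.01 FPKM and above Has2 at 9.76 FPKM. The lowest member was Dpt in WT 1, WT 2 and PKO 1, with 0 FPKM, Pi16 in PKO 2 at 0.139 FPKM and Fbln7 in PKO 3 at 0.526 FPKM; in WT 3, Dpt and Pi16 were both at 0.

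The ratios between members were not constant across libraries, including the 2 libraries in which stromal genes were high. Ratios are of read counts within a library, so they do not depend on scaling, and their exact 95% binomial intervals cover counting error only. Ly6a reads per Thy1 read numbered 0.581 in PKO 2 (interval 0.496 to 0.679) and 11.2 in PKO 3 (9.30 to 13.6), a 19.2-fold shift. In WT 1 to WT 3 and PKO 1 the same ratio was 1.14, 0.474, 0.105 and 2.71. Pi16 per Dpt read was 0.143 in PKO 2 (0.0546 to 0.317) and 1.13 in PKO 3 (0.899 to 1.43). Dpt per Mfap5 read was 0.1499 (0.109 to 0.203) and 0.491 (0.399 to 0.603). By contrast Dpep1 per Gsn read held between 0.156 and 0.230 in all 6 libraries, at 0.169 in PKO 2 and 0.171 in PKO 3.

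Over all 45 pairs of members, the ratio in PKO 3 differed from that in PKO 2 by a median of 3.28-fold, with a range from 1.01-fold (Dpep1 and Gsn) to 81.8-fold (Thy1 and Pi16). The intervals were apart for 36 pairs, 13 pairs differed by more than 5-fold, and 9 stayed within 1.5-fold. All pairs over 5-fold included Pi16, which had 7 reads in PKO 2, or Ly6a, except Thy1 and Dpt (10.3-fold). The pairs share members and are not separate observations, and pairs of other genes were not compared. There were 6 members with a higher CPM in PKO 3 and 4 with a higher CPM in PKO 2. Pi16 was 20.6-fold, Ly6a 4.85-fold and Dpt 2.59-fold higher in PKO 3, while Thy1 was 3.97-fold, Has2 1.86-fold, Fbln7 1.52-fold and Mfap5 1.26-fold higher in PKO 2. Has1, Dpep1 and Gsn differed by 1.16-fold, 1.08-fold and 1.07-fold.

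**Figure D2:**
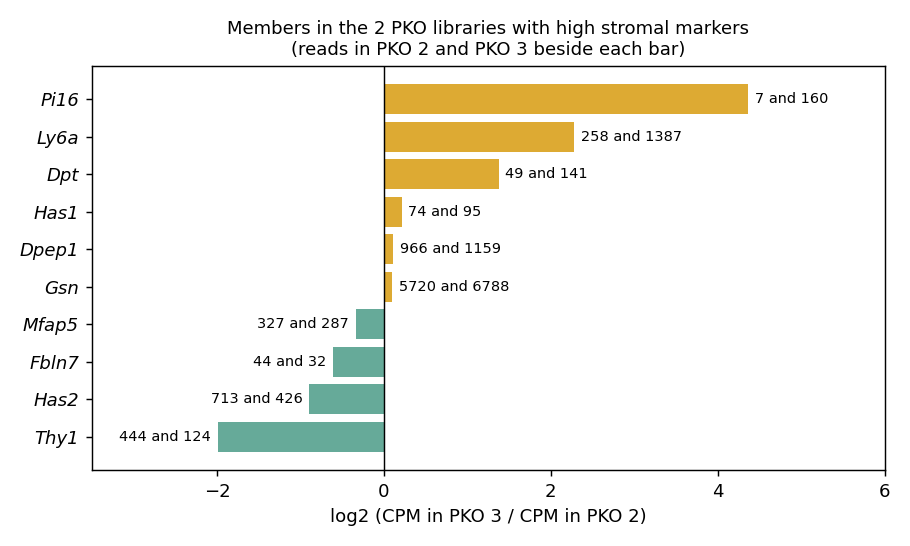
Log2 ratio of each member's CPM in PKO 3 to that in PKO 2, with the read counts in PKO 2 and PKO 3 beside each bar; yellow bars are higher in PKO 3 and green bars in PKO 2. Pi16, Ly6a and Dpt extend to the right, Thy1 extends furthest to the left, and Gsn and Dpep1 sit next to 0.

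Stromal genes outside the list split between these libraries in both directions. Of 28 other stromal markers at 1 CPM or more in both libraries, 12 were higher in PKO 3 and 16 in PKO 2. Ly6c1, a neighbour of Ly6a in the Ly6 family, was at 1.82 CPM in PKO 2 and 14.3 CPM in PKO 3, and Col15a1, a basement membrane collagen of fibroblasts, at 94.3 and 6.98 CPM.

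Relative to a set of 6 stromal genes, members again fell into unlike patterns. The summed CPM of Pdgfra, Dcn, Lum, Col1a1, Col1a2 and Col3a1 came to 431, 312 and 350 for WT 1 to WT 3, against 560, 2567 and 1528 for PKO 1 to PKO 3; in WT most of it was Col3a1, at 311 ± 53.7 CPM (SD, n = 3). Per 1000 CPM of that sum, Gsn was at 590, 480 and 398 in WT and at 468, 127 and 228 in PKO, and Dpep1 at 114, 74.7 and 91.6 in WT and at 105, 21.4 and 38.9 in PKO. Both were thus lowest in PKO 2 and PKO 3. Ly6a was at 3.42, 1.89 and 0.625 in WT and at 6.19, 5.72 and 46.6 in PKO. Mfap5 was at 0.685, 2.10 and 1.72 in WT and at 2.38, 7.25 and 9.64 in PKO. Exact two-sided permutation tests of the 10 ratios gave no p below 0.1, which 3 against 3 libraries cannot go below, and no adjusted p below 0.333.

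The choice of reference changed these ratios. Per 1000 CPM of Pdgfra alone, Mfap5 was at 139, 323 and 162 in WT and at 260, 182 and 154 in PKO, with overlapping groups. Ly6a was at 694, 290 and 58.8 in WT and at 677, 143 and 747 in PKO, so its groups overlapped on this scale too (exact permutation p = 0.6, two-sided). Fbln7 was at 73.5 to 139 in WT and at 146, 24.5 and 17.2 in PKO, and Thy1 at 559 to 613 in WT and at 250, 247 and 66.7 in PKO. Gsn ran from 37471 to 119720 in WT and was at 51177, 3180 and 3653 in PKO. Mfap5 kept within a 2.32-fold range to Pdgfra over the 6 libraries, the narrowest of the 8 members with reads in all of them, and Has2 had the widest, 48.6-fold. The Mfap5 ratios in WT 1 to WT 3 rest on 5, 10 and 11 Mfap5 reads and 36, 31 and 68 Pdgfra reads. Counting error is thus large there, and a constant proportion cannot be resolved.

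**Figure D3:**
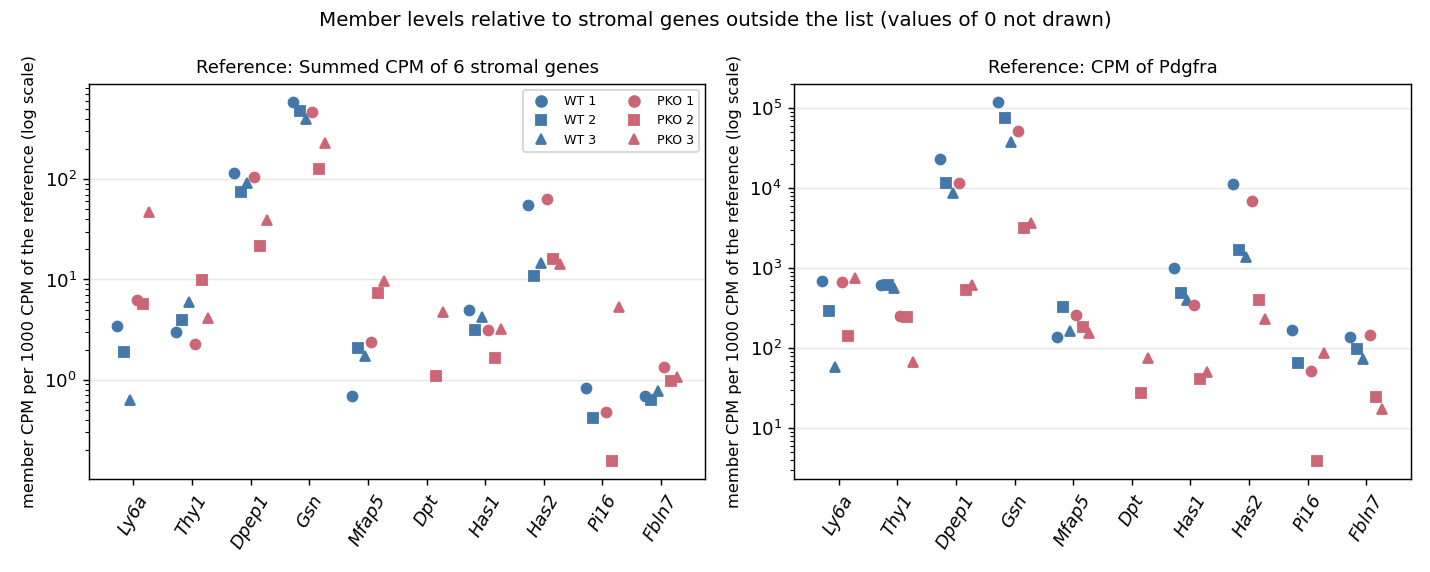
Member CPM per 1000 CPM of the summed stromal genes (left) and of Pdgfra (right), both on log axes, in WT (blue) and PKO (red) libraries, with circles, squares and triangles for libraries 1, 2 and 3; values of 0 are not drawn. Gsn and Dpep1 are lowest in PKO 2 and PKO 3 on both scales. Mfap5 stays between 139 and 323 relative to Pdgfra, from only 5 to 11 Mfap5 reads per WT library.

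Related gene lists gave the setting for the members. Of the 32 other stromal markers, 27 were tested with edgeR, which gave a median log2 fold change of 2.73 and called 0. In the full list of 32, DESeq2 called 19 higher and 0 lower, against 4.73% and 0.933% of genes with an adjusted p. The 19 include genes that edgeR's filter removed, among them Ly6c1. Relative to the WT mean, the median log2 level of that list was 0.49, 3.42 and 3.04 in PKO 1 to PKO 3. The list of microfibril and fibulin genes (19 in the table, 18 tested, 3 of them shared with the stromal list) had a median of 1.30, and DESeq2 called 10 higher and 0 lower. Fbln2, a fibulin of the same family as Fbln7, was at 21.7, 11.8 and 30.4 CPM in WT against 84.5, 910 and 508 CPM in PKO (DESeq2 adjusted p = 0.000162). Ltbp2, a microfibril-binding protein, was at 4.72 ± 3.55 and 72.7 ± 65.1 CPM (DESeq2 adjusted p = 0.00106), and Fbn2, the fibrillin of developing microfibrils, at 0.928 ± 0.425 and 5.37 ± 2.96 CPM (DESeq2 adjusted p = 0.000875).

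In the Ly6 and uPAR family, 13 of 19 genes were in the table and 4 were tested with edgeR, with a median log2 fold change of 0.69. DESeq2 called Ly6c1, which edgeR's filter removed, higher and Lypd6 lower. Lypd6 was at 7.42 ± 1.67 CPM in WT against 3.03 ± 1.32 CPM in PKO, lower in every PKO library. Ly6e was at 22.2 to 36.2 CPM in WT against 24.7, 80.5 and 73.3 CPM in PKO, and Plaur, the urokinase receptor, at 29.6 ± 1.91 and 43.0 ± 14.0 CPM; neither passed. Among paralogs of the members, 14 of 19 were tested (median 0.65). Of the 19, DESeq2 called 4 higher (Fbln2, Mfap2, Pi15 and Capg) and 0 lower. Over all genes with a DESeq2 adjusted p, the shares called were 4.73% higher and 0.933% lower. Pi15, a CAP protein like Pi16, was at 0.827, 0.262 and 0.547 CPM in WT, against 1.07, 15.9 and 12.1 CPM in PKO, so it was high in PKO 2 as well as in PKO 3. Capg, an actin-capping relative of gelsolin, was at 38.6 ± 5.75 and 126 ± 67.1 CPM (DESeq2 adjusted p = 0.00191).

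Markers of other cell types were set beside these values. Myogenic markers summed to 13219 to 14717 CPM in WT and to 14013, 10355 and 10939 CPM in PKO 1 to PKO 3, and 15 of 16 had a negative log2 fold change (median -0.24), where 48.3% of all tested genes had a positive one; DESeq2 called Itga7 and Fgfr4 lower. Myog was at 2682 ± 152 and 2348 ± 138 CPM, and Des at 2505 ± 246 and 2184 ± 445 CPM. Endothelial markers (9 in the table) summed to 4.38 to 5.83 CPM in WT against 8.15 to 16.7 CPM in PKO. Leukocyte markers (10) summed to 6.62 to 7.73 and 11.9 to 18.4 CPM, with Ptprc at 0 in WT 1 and PKO 1 and under 1 CPM elsewhere, and Itgam at 2.94 ± 0.857 and 2.10 ± 0.458 CPM. Of these, Cdh5 (1.03 ± 0.584 CPM in WT, 4.45 ± 2.03 CPM in PKO), Emcn (0.142 ± 0.132 and 1.31 ± 0.971 CPM) and Lyz2 (0.673 ± 0.792 and 7.04 ± 1.78 CPM) rose with DESeq2, and Pecam1 was at 0.642 ± 0.178 and 1.84 ± 0.714 CPM. Pericyte and smooth muscle markers (9) summed to 1317 to 2155 and 1944 to 2343 CPM, mostly Acta2, which differentiating myoblasts also express; Cspg4 (11.9 ± 4.42 and 33.3 ± 17.6 CPM) and Pdgfrb (6.80 ± 4.46 and 125 ± 124 CPM), which stromal cells also express, rose with DESeq2. Notch3 of the same list was at 224 ± 62.6 CPM in WT against 123 ± 40.4 CPM in PKO (edgeR adjusted p = 0.249, DESeq2 adjusted p = 0.0770), and Abcc9 at 81.4 ± 31.5 and 67.7 ± 18.0 CPM. Tenocyte markers (5) summed to 133 to 145 CPM in WT against 124 to 134.5 CPM in PKO, and Schwann cell markers (6) to 3.78 to 12.8 and 6.50 to 11.1 CPM. Among their genes were Scx (136 ± 5.46 and 125 ± 4.90 CPM) and Mkx (2.84 ± 0.809 and 3.87 ± 1.38 CPM) for tenocytes, and Ngfr (4.53 ± 2.14 and 4.19 ± 0.775 CPM) for Schwann cells. Of 7 listed adipocyte markers, only 4 were in the table. These 4 summed to 9.25 to 92.8 CPM in WT against 21.1 to 197 CPM in PKO, mostly Car3. Fabp4 (0.198 ± 0.136 and 2.72 ± 2.55 CPM) rose with DESeq2, and Pparg was at 1.97 ± 0.714 and 4.603 ± 1.593 CPM. Adipoq, Plin1 and Cidec were not analysed here. The part that any of these cells, or of stromal cells, have in the members' levels was not tested.

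**Figure D4:**
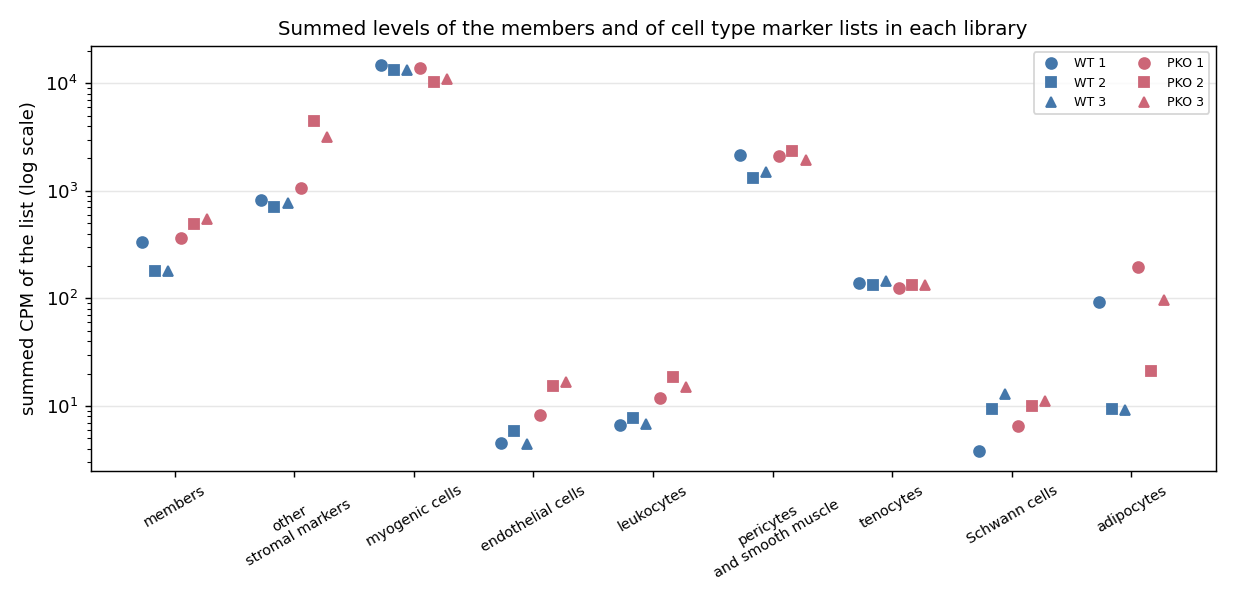
Summed CPM (log axis) of the members and of 8 cell type marker lists in each library, with WT in blue, PKO in red, and circles, squares and triangles for libraries 1, 2 and 3. The other stromal markers reach 4483 and 3160 CPM in PKO 2 and PKO 3 against 708 to 1068 CPM in the other libraries, while myogenic markers are at 10355 CPM or more in every library.

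The genes outside the list whose log2 CPM followed the members' mean profile most closely over the 6 libraries, among 12985 candidates, were Pla2g4a, Aebp1, Mmp14, Col4a5, Col3a1, Pxdc1, Hmox1, Cbx6, Fblim1 and Mcpt8, with Pearson's r from 0.997 to 1.000. That profile was lowest in WT 2 and WT 3, intermediate in WT 1 and PKO 1 and highest in PKO 2 and PKO 3. Aebp1, a collagen-binding protein of connective tissue, was at 37.7, 8.25 and 12.5 CPM in WT against 69.1, 341 and 284 CPM in PKO. Mmp14, a membrane-bound collagenase, was at 79.2, 37.1 and 43.2 CPM and 106, 302 and 285 CPM. Hmox1, heme oxygenase 1, was at 83.5, 42.1 and 50.2 CPM and 102, 270 and 252 CPM. With only 6 libraries and so many candidates, values of r this high describe the order of libraries and nothing more. The r of single members with the mean profile ran from 0.724 for Pi16 to 0.968 for Fbln7. That mean is made of the members kept by the filter, which raises their r, and Pi16 and Dpt are not in it.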

How the data were processed

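Polyadenylated RNA was sequenced in 6 libraries, which were grouped by their titles (3 WT, 3 PKO). Per the series text and the submitters' processing notes, 150 bp paired reads were aligned by TopHat2 to the GRCm38 (mm10) build, and HTSeq 0.6.1 produced gene counts. The annotation version and strand setting are not stated, and without strand an antisense or overlapping gene cannot be separated from its partner. Every test started from the deposited whole-number counts. The deposited FPKM values, computed by the authors from counts and gene length, were used only to compare levels between genes. A deposited normalized signal (counts over a constant factor per library) was not used. The authors' log2 fold changes and p-values were made with DESeq2 or edgeR (series text). No value column lacked a sample.

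Genes were tested with edgeR 4.0.16 under R 4.3.3, using filterByExpr, TMM factors, robust quasi-likelihood fits on genotype alone, and Benjamini-Hochberg adjustment over all genes tested; each SE is the log2 fold change over the root of F. DESeq2 1.42.0 (Wald test, unshrunken) and limma-voom (limma 3.58.1) were alternatives, with RLE, upper-quartile and library-size scaling, no filter, a filter at a mean of 1 CPM, a replicate block and leaving out each library. A prior count of 2 was added for log2 CPM. A limit of 3 counts stood for 0 reads, and limits and intervals cover counting error only.

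The members and gene lists were chosen with earlier results of these data known. Named genes were the members and Pnpla2, up to 3 genes with the smallest p of each related list, the 10 genes most like the mean profile of the 8 members kept by the filter, the 2 markers of each cell type with the highest mean CPM, and the 6 stromal genes of the ratios; other listed genes named (Col15a1, Cspg4, Abcc9, Emcn, Fabp4, Fgfr4, Has3, Itga7, Ly6c1, Mfap2, Myod1, Pax7, Pdgfrb, Ptprc and those of the closing section) were chosen after their values were seen. The result for 1 gene under this rule is not reported here. Of the listed markers, Cemip2, Mymk and Adgre1 were found under older symbols.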

Additional observations from a re-analysis of the deposited data

How the results depend on the processing

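The direction of the log2 fold change of every member was the same, higher in PKO, under every alternative that gave a value; Pi16 had a value only without the filter, with a mean of at least 1 CPM and with DESeq2. The scalings, filters and limma-voom left the counts of called genes and of called members at 0. DESeq2 called 917 genes and 4 members. Leaving out single libraries gave 0 to 1000 genes and 0 to 5 members: 1000 genes and 3 members without WT 1, 737 genes and 5 members without PKO 1, and 0 without any other library. Without WT 1 and PKO 1, chosen after seeing the data, 2266 genes and 9 members were called. For these changes the cause was not tested. In the fits without PKO 1, Dpt and Fbln7 were kept through their PKO counts, so the member counts are descriptions only.

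The shared replicate numbers did not clearly pair the libraries. Deviations from the group mean correlated over genes at 0.103, -0.025 and 0.129 for the same-numbered libraries 1, 2 and 3. For libraries with unlike numbers the correlations ran from -0.207 to 0.122. With the replicate number as a block, edgeR called 1 gene and 0 members. Taking Pdgfra alone in place of the summed stromal genes lowered the log2 ratio, PKO minus WT, by the same amount for every member. For Ly6a it went from 2.80 to 0.798, and for Pi16 from 1.23 to -0.777. That shared shift exceeded the spread between libraries for 8 of the 10 members, the others being Dpt and Pi16. For members with few reads (Fbln7, Pi16, and Mfap5 and Dpt in WT), counting error adds to the spread between libraries.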

Other observations

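Among the marker lists, Rgs5 and Car3 followed another division of the libraries, and both were picked after their values were seen. Rgs5, a regulator of G protein signalling used as a pericyte marker, had 41.9, 4.13 and 5.42 CPM in WT 1 to WT 3, against 106, 39.6 and 151 CPM in PKO 1 to PKO 3. Car3, a carbonic anhydrase of slow muscle and fat, had 89.7, 7.53 and 7.72 CPM in the WT libraries, against 192, 15.6 and 85.3 CPM in PKO. WT 1 was thus well above WT 2 and WT 3 for both genes, as it was for the member Has2, and PKO 1 was above PKO 2. Neither gene passed edgeR (adjusted p = 0.269 and 0.544) or DESeq2 (adjusted p = 0.182 and 0.65).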
